A study of Rattus norvegicus with 21 samples.

Results

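Bladders collected 8 and 16 weeks after spinal cord injury (SCI) were compared with bladders of uninjured rats at the 2-week time point, and each gene was asked whether it had left the level of those controls or kept it. The comparison held 9 of the 21 libraries of the time course, chosen by their labels: 3 libraries of SCI at 8 weeks and 3 at 16 weeks, together called chronic SCI here, against 3 libraries of 2-week controls. All animals were male wild-type Sprague Dawley rats, an outbred laboratory strain, and the labels give an age of 6 to 7 weeks for the transection. SCI was a complete transection of the cord at the eighth thoracic level, the controls were not injured, and no other treatment entered these groups. RNA was taken from the full thickness of the bladder wall, so muscle, mucosa and all other cells of the wall contributed, and in such bulk samples fewer cells of a type and less RNA per cell cannot be told apart. The chronic SCI rats were older than the 2-week controls by the time between collections, so injury and age cannot be told apart in this comparison alone. Uninjured controls at 8 and 16 weeks (6 libraries, called aged controls here) were therefore set beside it.

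The bladder wall consists of a layer of smooth muscle, the detrusor, and a mucosa of urothelium on connective tissue. After the cord is cut above its lumbosacral segments the bladder first loses its reflexes, and later a spinal reflex returns that contracts the bladder against a closed sphincter. The wall thickens and its matrix is remodelled under this functional obstruction. In these data, 2-week controls are young adult bladders without that history.

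Each library held between 8087726 and 15472537 counts, with 9902364 to 12273238 in the 2-week controls and 8087726 to 10740933 in chronic SCI. Levels are given in CPM, counts scaled to library size and to a further factor per library (TMM), which was 0.996 to 1.09 in the libraries compared. Before that factor, 1 CPM corresponded to 8.09 to 12.3 counts in those libraries. Of 32754 genes in the table, 15225 had enough counts to be tested. The genes were identified by Ensembl rat identifiers, which no table used here paired with symbols, so genes are described by their behaviour, 4 of them by identifier, and the tissue could not be checked against its marker genes. The labels place all libraries in 1 batch and list each as a separate sample. They do not say outright that each came from its own rat, and if some did not, p-values measure only the spread between these samples, which may be technical.

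The first question was how many genes had left the level of the 2-week controls. Genes counted as called, or as having left that level, where edgeR (quasi-likelihood test) gave a Benjamini-Hochberg adjusted p under 0.05. Of the tested genes, 171 (1.12%) were called, and 149 of them (0.979% of the tested genes) were lower in chronic SCI against 22 (0.144%) that were higher. At an unadjusted p under 0.05 there were 1471 genes, 546 higher and 925 lower. The 149 genes that fell had a median log2 fold change of -1.30, from -4.05 to -0.37, while the median absolute log2 fold change over all tested genes was 0.111. Among them, 67 fell by 2- to 4-fold, 28 by 4- to 8-fold and 10 by at least 8-fold. The 22 genes that rose had a median log2 fold change of 0.68, from 0.46 to 4.58, and 3 of them rose by at least 2-fold. Standard errors of these changes had a median of 0.23 among the genes that fell and 0.15 among those that rose.

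Leaving out 1 of the 9 libraries at a time gave 63 to 169 called genes. The fewest were called without replicate 3 of the 2-week controls (63) and without replicate 1 of that group (81), while omission of replicate 2 of that group gave 155 and of a chronic SCI library 116 to 169. The genes that rose were the less stable class, with 2 called without replicate 1 of the 2-week controls, 5 without replicate 3 of that group, and at most 15 under any omission. With DESeq2's Wald test 308 genes were called, 63 higher and 245 lower, and they included all 171.

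**Figure D1:**
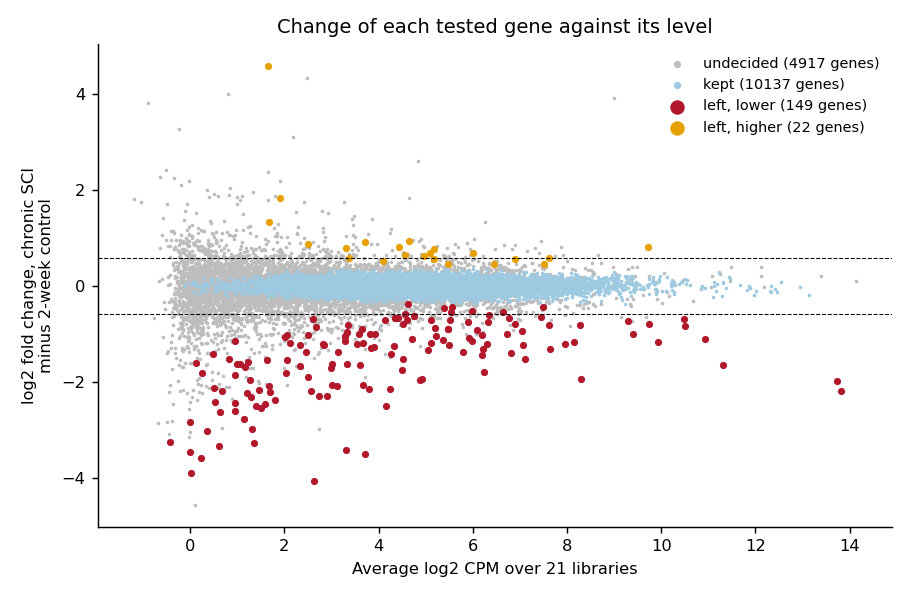
Log2 fold change of chronic SCI against 2-week controls (vertical axis) for each of the 15225 tested genes, plotted by average log2 CPM over the 21 libraries (horizontal axis). Points are coloured by class, and the dashed lines mark a change of 1.5-fold either way. The 149 genes that fell reach from the lowest levels to the most abundant genes, the 22 that rose include 3 that changed by at least 2-fold, 1 of them far above the rest, and the 10137 genes that kept their level form the central band.

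The order of the libraries was also examined without a model. All 6 chronic SCI libraries lay below all 3 controls for 637 genes (4.18% of the tested genes) and above them for 402 (2.64%). Of the called genes, 141 of the 149 that fell and 20 of the 22 that rose were separated in this way, as a description of genes called from these same libraries. Over all tested genes, 24.3% of the sum of squares of log2 CPM within the 9 libraries lay between chronic SCI and the 2-week controls (one-sided exact permutation test, p = 0.0119, adjusted p = 0.0119, the smallest of 84 arrangements). Any split of the libraries puts some share between its groups, so 24.3% overstates the group difference alone.

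The genes that fell covered the whole range of abundance. Their median level was 18.4 CPM in the 2-week controls, 14.7 CPM in aged controls and 7.15 CPM in chronic SCI. Of the 149, 13 had an average log2 CPM above 8, against 1 of the 22 that rose. Together the 149 genes took 5.67% ± 0.975 (SD, n = 3) of all counts in the 2-week controls, 4.21% ± 0.878 (SD, n = 6) in aged controls and 1.85% ± 0.33 (SD, n = 6) in chronic SCI. The lowest 2-week control stood at 5.04% and the highest chronic SCI library at 2.26%. The genes were chosen as lower in these same libraries, so this separation is a description.

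Most of that share in the 2-week controls, 3.78% of all counts, belonged to 2 genes, which were the second and the third most abundant of all tested genes and were singled out after their values were seen. The second most abundant gene lay between 16581 and 23811 CPM in the 2-week controls, with a mean of 19110 ± 4075 (SD, n = 3). It lay between 2484 and 5967 CPM in the 6 chronic SCI libraries, with a mean of 4237 ± 1285 (SD, n = 6). Every chronic SCI library was thus far below every control, and the log2 fold change stood at -2.18 with an SE of 0.27 (adjusted p = 0.000291 in edgeR). In aged controls the gene ranged from 9474 to 20461 CPM, overlapping the 2-week controls (log2 fold change -0.49, adjusted p = 0.272 in edgeR), and chronic SCI was lower than aged controls by a log2 difference of -1.69 (adjusted p = 0.00048). In SCI bladders at 2 weeks it still ranged from 10698 to 20997 CPM. The third most abundant gene behaved alike, with 18251 ± 3578 CPM (SD, n = 3) in the 2-week controls and 4663 ± 1157 CPM (SD, n = 6) in chronic SCI, and it changed by -1.97 on the log2 scale with an SE of 0.23 (adjusted p = 0.000242 in edgeR). Its levels in SCI at 2 weeks, 10568 to 20486 CPM, also reached those of the controls of that week, 16035 to 22379 CPM. Both genes remained called in each of 18 alternative analyses.

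The gene that fell furthest among the called genes was ENSRNOG00000047712. It measured 12, 11.3 and 9.94 CPM in the 3 libraries of 2-week controls. At 8 weeks after SCI it measured 0.343, 0.546 and 0.587 CPM, and at 16 weeks 0.937, 0.498 and 1.27 CPM, or 4 to 11 counts a library. The groups did not overlap, and no chronic SCI library came near the lowest control. It changed by -4.05 on the log2 scale with an SE of 0.29 (adjusted p = 6.27e-07 in edgeR), with -4.48 at 8 weeks and -3.62 at 16 weeks. In aged controls the gene had a median of 5.71 CPM, from 3.08 to 9.4, and in SCI bladders at 2 weeks it measured 3.04, 6.22 and 3.54 CPM, so the early SCI libraries lay close to the aged controls, 1 of them just below the lowest, and above every chronic SCI library. Chronic SCI lay below aged controls by a log2 difference of -3.14 (adjusted p = 7.34e-06 in edgeR), and the change of aged controls from 2-week controls was -0.91 (adjusted p = 0.0624).

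The genes with the largest falls were followed as a set of 10, taken by size of change among called genes with an average log2 CPM of at least 1 and no overlap between the groups. Their log2 fold changes ran from -4.05 to -2.31 with a median of -2.65. In aged controls the same 10 genes differed by a median of -0.54 from the same 2-week controls that chose them, from -2.07 to 0.44, and none was called (0.282% of all tested genes were). Between chronic SCI and aged controls 9 of the 10 were called, with differences from -3.14 to -1.89, and the other differed by -1.20 (adjusted p = 0.0967 in edgeR). In that comparison, which uses the same chronic SCI libraries that chose the set, 26.3% of all tested genes were called. These sets were taken by the size of their change, so their values are a description.

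The gene that rose furthest was ENSRNOG00000043249. It measured 0.268, 0 and 0.304 CPM in the 2-week controls, which is 3, 0 and 3 counts. It measured 5.15, 2.18 and 4.2 CPM at 8 weeks after SCI and 10.3, 2.89 and 3.12 CPM at 16 weeks. Every chronic SCI library was above every 2-week control, and the ratio of summed counts, scaled to library size, was 25.7 with a 95% exact interval from 11.7 to 70.7 that covers counting error only. The fit gave a log2 change of 4.58 with an SE of 0.88 (adjusted p = 0.0101 in edgeR). The call was lost when any 1 of the 3 control libraries was left out, with adjusted p values between 0.0589 and 0.0632. The gene was not low in all other uninjured bladders. It measured 1.15 to 3.67 CPM in aged controls and 4.85, 0.949 and 0.223 CPM in the 0-week controls, so 1 of the latter lay inside the chronic SCI range. The difference between chronic SCI and aged controls was 1.11 (edgeR adjusted p = 0.083).

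The set of 10 genes with the largest rises, chosen by the same rule, had log2 fold changes from 0.68 to 4.58 with a median of 0.84. In aged controls all 10 also had positive differences from the 2-week controls, with a median of 0.52 against 0.01 over all tested genes, and none was called. The 2-week controls that chose these genes are also part of that difference. Against aged controls 3 of the 10 were called, a share near the 26.3% called among all tested genes. One of these 3 was at 1.74 CPM in the 2-week controls, 1.94 CPM in aged controls and 4.67 CPM in chronic SCI, and another at 616, 727 and 1080 CPM in the same order.

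**Figure D2:**
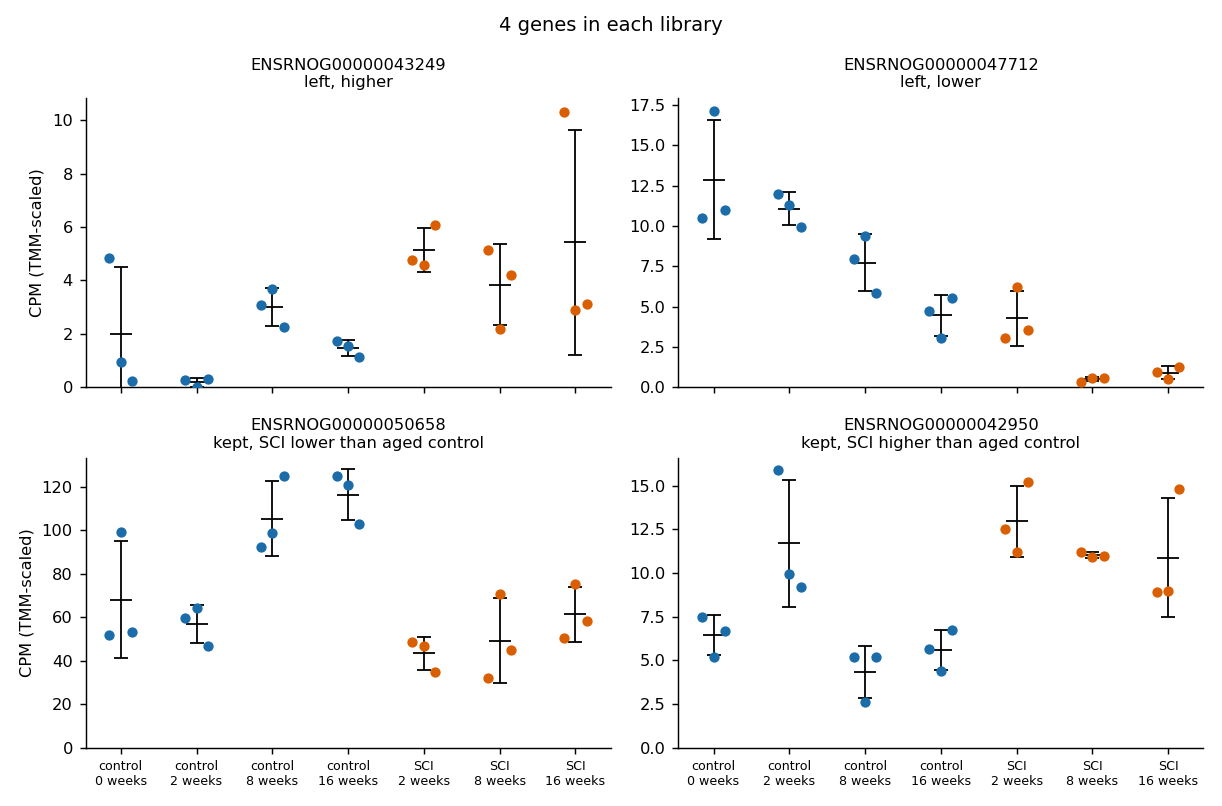
CPM (vertical axes, from 0) of the 4 genes named by identifier in each library of the 7 groups, with blue points for controls, orange points for SCI, and black bars for the mean and SD of 3 libraries. ENSRNOG00000043249 lies at 0 to 0.304 CPM in 2-week controls, and ENSRNOG00000047712 stays at or under 1.27 CPM in chronic SCI. ENSRNOG00000050658 and ENSRNOG00000042950 have like levels in chronic SCI and 2-week controls and other levels in the aged controls.

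The next question was whether both weeks carried the departure. Fitted alone, SCI at 8 weeks differed from the 2-week controls at 72 genes (0.473%), 5 higher and 67 lower, and SCI at 16 weeks at 77 genes (0.506%), 10 higher and 67 lower. Of the 149 genes that fell in the pooled comparison, 66 were called at 8 weeks, 67 at 16 weeks and 47 at both. The median log2 fold change of the 149 was -1.28 at 8 weeks and -1.35 at 16 weeks. These libraries of both weeks chose the genes, so the values by week are a description. All 149 had negative differences at both weeks, and 72 of them were lower at 16 than at 8 weeks. Of the 22 genes that rose, 4 were called at 8 weeks, 9 at 16 weeks and 1 at both, with medians of 0.66 and 0.72. Leaving out 1 library gave 11 to 69 called genes at 8 weeks, the fewest without replicate 1 of that SCI group, and 10 to 79 at 16 weeks, the fewest without replicate 2 of that SCI group. The weeks shared the controls, and the difference between them was not tested.

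No gene was switched on or off at a depth that could be read. Over the whole table, 8 genes had no count in any 2-week control and some in all 6 chronic SCI libraries, with at most 16 counts summed, and 21 genes showed the reverse, with at most 7.

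The libraries outside the 9 compared, which shared in the fit's estimate of the spread, were then read for the same genes. Levels were expressed as log2 CPM relative to each gene's mean over the 21 libraries, and the median over the class was taken in each library. For the 149 genes that fell, these medians lay between -0.87 and -0.58 in the 6 chronic SCI libraries and between 0.29 and 0.61 in the 2-week controls. The 0-week controls stood higher still or alike, at 0.74, 1.05 and 0.43, the 8-week controls at 0.27 to 0.46 and the 16-week controls at 0.05 to 0.19. SCI libraries at 2 weeks stood at -0.24, 0.06 and -0.44, between their controls and chronic SCI. All 6 chronic SCI libraries lay below all 3 of the 0-week controls for 139 of the 149 genes, against 6.78% of all tested genes, and below all 6 aged controls for 109, against 5.3%. The mean of SCI at 2 weeks was below that of the 2-week controls for 146 of the 149, against 49.8% of all tested genes. These counts share the chronic SCI or the 2-week control libraries with the comparison that chose the genes.

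For the 22 genes that rose, medians ran from 0.11 to 0.39 in chronic SCI and from -0.55 to -0.22 in the 2-week controls. In the 16-week controls they were -0.03, 0.02 and 0.06, and the mean of aged controls lay between those of 2-week controls and chronic SCI for 20 of the 22 genes. The same order held for 110 of the 149 genes that fell and for 20.6% of all tested genes, and it shares the libraries that chose the genes. SCI at 2 weeks stood at 0.08, 0.10 and 0.04. All 6 chronic SCI libraries lay above all 6 aged controls for 3 of the 22 genes, against 5.22% of all tested genes.

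**Figure D3:**
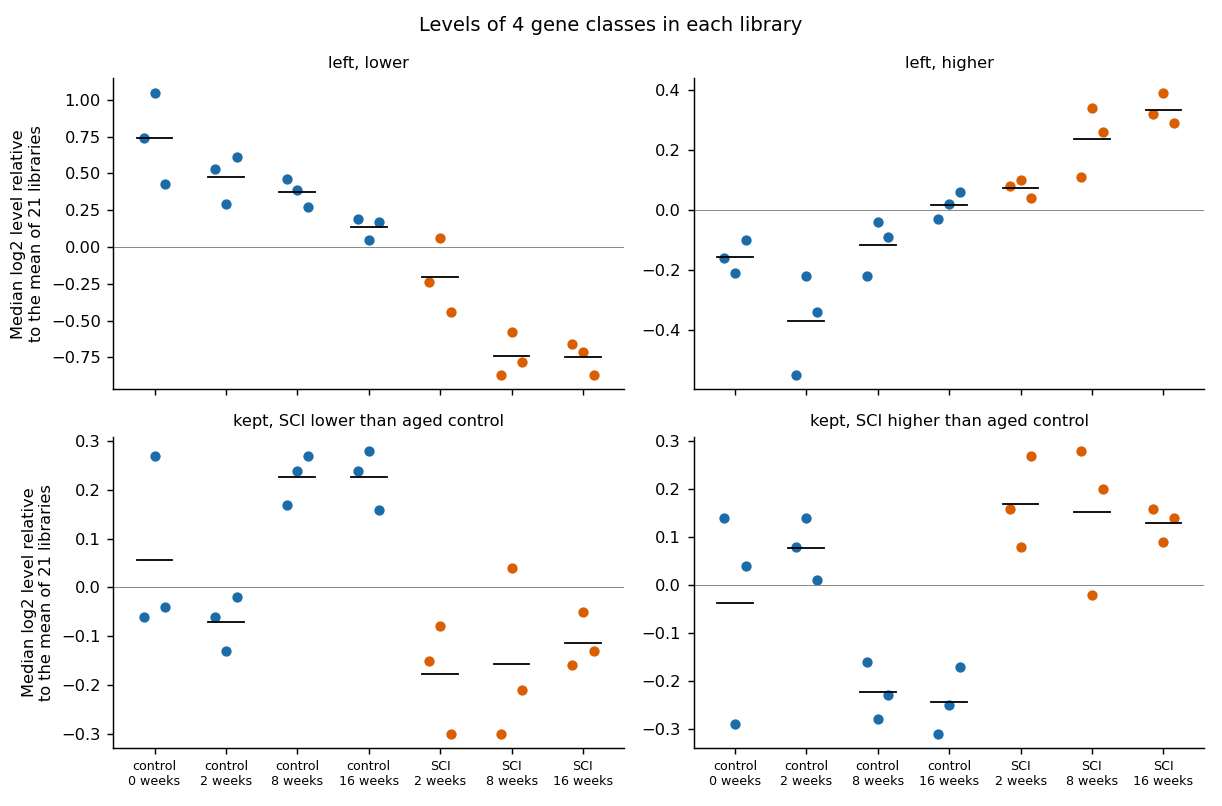
Median log2 level relative to each gene's mean over 21 libraries (vertical axes) in each library of the 7 groups (horizontal axes), with blue points for controls, orange points for SCI and black lines for group means. The 149 genes that fell step down from controls to SCI at 2 weeks and to chronic SCI, where medians lie between -0.87 and -0.58. In the lower panels chronic SCI lies near the 2-week controls, and the 8-week and 16-week controls lie apart.

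Keeping the control level was tested directly, because a p that misses the threshold does not show that a gene stayed. A gene was taken as kept when limma's equivalence test (2 one-sided tests) placed the difference within 1.5-fold either way at an adjusted p under 0.05. By this test 10138 genes (66.6%) kept the level of the 2-week controls. One of them was also called as changed, a small but precise difference, and the other 10137 are described here as kept. Their median absolute difference was 0.0706 on the log2 scale, the largest difference of any gene that passed was 0.38, and 65.1% of them differed by less than 0.1. The median kept gene stood at 35.4 CPM in the 2-week controls, 35.5 CPM in chronic SCI and 35.2 CPM in aged controls. In the 9 libraries compared, kept genes held 81.6% of the counts of tested genes.

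A further 4917 genes (32.3%) were undecided, neither called nor shown to be within the margin. Undecided genes were mostly weakly expressed, with a median of 3.18 CPM in the 2-week controls, and their 95% intervals had a median half-width of 0.619 against 0.24 for kept genes. With the genes divided into 4 equal bins by level, 18.6% were kept in the lowest bin, 71.7% in the second, 88% in the third and 88.1% in the highest. In the lowest bin 80.1% were undecided. The interval excluded 0 for 869 undecided genes, and 816 had a point estimate beyond the margin. With the narrower of the 2 other margins tried 3751 genes were kept.

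**Figure D4:**
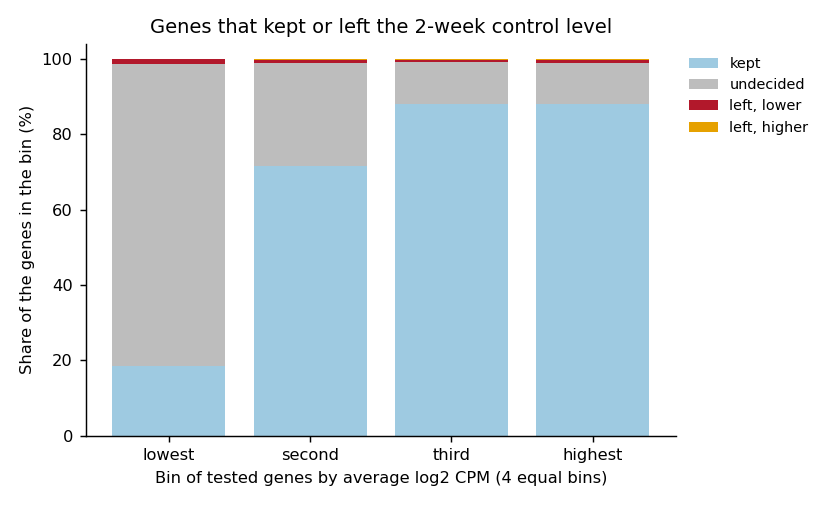
Share of genes in each class (vertical axis, percent) in 4 bins of the tested genes by average log2 CPM (horizontal axis), each of 3806 or 3807 genes. Kept genes make up 18.6% of the lowest bin and 88.1% of the highest, and most of the remainder is undecided.

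The aged controls gave the departure of uninjured bladders over the same weeks. Against the same 2-week controls, 43 genes (0.282%) were called in aged controls, 13 higher and 30 lower, and the median absolute log2 fold change over all tested genes was 0.186. This count was unstable. It was 0 in edgeR in 6 of 9 omissions of 1 library (replicate 1 of the 2-week controls, each of the 8-week controls, and replicates 1 and 2 of the 16-week controls), where 2803 to 3891 genes had an unadjusted p under 0.05. It was 1223 with DESeq2 on all libraries, and 1446 when the 0-week controls were taken out of the fit, so little can be read from which genes passed. For the 149 genes that fell in chronic SCI, the median difference of aged from 2-week controls was -0.25, and for the 22 that rose it was 0.33, against 0.01 over all tested genes. These values use the same 2-week controls that chose the genes and are a description.

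Whether the departures of SCI and uninjured bladders differed was tested as chronic SCI against aged controls, in which the 2-week controls cancel. Here 4002 genes (26.3%) were called, 1844 higher and 2158 lower in chronic SCI. With library size alone as scaling there were 4124 higher and 1338 lower, and the median log2 difference of all genes was 0.135 in place of -0.01, so the balance of directions depended on the scaling. Of the 149 genes that fell against 2-week controls, 134 (89.9%) were also lower than in aged controls, with a median difference of -1.03 over all 149. Of the 22 that rose, 11 were also higher than in aged controls and the other 11 were not called. Of all 15225 tested genes, 2158 were lower and 1844 higher in this comparison. The same chronic SCI libraries chose the 149 and the 22 genes, so these counts are a description.

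Of the 4002 genes that separated chronic SCI from aged controls, 2553 (63.8%) had kept the level of the 2-week controls, a share near the 66.6% kept among all tested genes, 145 had left it and 1304 were undecided. Without replicate 1 of SCI at 8 weeks 2468 genes were called between chronic SCI and aged controls. Among the 10137 kept genes, 1451 (14.3%) were higher in chronic SCI than in aged controls, 1102 (10.9%) were lower, and 7584 (74.8%) were not called. The 1451 genes had a median difference of 0.38 between chronic SCI and aged controls. Their median differences from the 2-week level were 0.08 in chronic SCI and -0.32 in aged controls. These medians follow from how the classes were chosen and are a description. For the 1102 genes the difference was -0.39, with -0.06 for chronic SCI and 0.32 for aged controls. The point estimate of aged controls also lay within 1.5-fold of the 2-week controls for 1275 of the 1451 genes and 938 of the 1102. With library size alone as scaling the 2 classes held 3286 and 580 genes. Without replicate 1 of SCI at 8 weeks they held 899 and 632, and the second class also shrank without replicate 3 of SCI at 8 weeks (643), replicate 1 of SCI at 16 weeks (716) and replicate 3 of SCI at 16 weeks (728).

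The 2 classes were also read in SCI at 2 weeks and the 0-week controls, whose levels were not compared in choosing them but which shared in the estimate of the spread. Without the 0-week controls in the fit the classes held 1951 and 1395 genes. The 1451 genes had relative levels of 0.16, 0.08 and 0.27 in SCI at 2 weeks, 0.08, 0.14 and 0.01 in 2-week controls, and 0.14, -0.29 and 0.04 in 0-week controls. They had -0.31 to -0.16 in the 6 aged controls. The 1102 genes had -0.15, -0.08 and -0.30 in SCI at 2 weeks, -0.06, -0.13 and -0.02 in 2-week controls, and -0.06, 0.27 and -0.04 in 0-week controls. They had 0.16 to 0.28 in aged controls. All 3 SCI libraries of week 2 thus lay apart from the aged controls in both classes, while replicate 2 of the 0-week controls lay in the range of the aged controls. In replicate 2 of SCI at 8 weeks the 2 classes stood at -0.02 and 0.04, nearest the aged controls of any chronic SCI library.

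ENSRNOG00000050658 came first among kept genes lower than in aged controls, ranked by size of that difference where the 6 and 6 libraries did not overlap and the average log2 CPM was at least 1. It measured 59.6, 64.1 and 46.9 CPM in the 2-week controls. In chronic SCI it had a median of 54.2 CPM, from 32.2 to 75.4, so the groups overlapped on both sides. In aged controls it had a median of 112 CPM, from 92.4 to 125, above every library of both other groups. The difference of chronic SCI from 2-week controls was -0.05 by edgeR and -0.08 by limma, with a 95% interval from -0.56 to 0.39 (equivalence adjusted p = 0.0329 in limma). The difference from aged controls was -1.01 (SE 0.19, edgeR adjusted p = 0.00199). Equivalence was lost without replicates 1 or 3 of the 2-week controls, replicate 2 of SCI at 8 weeks or replicate 2 of SCI at 16 weeks, with adjusted p up to 0.126. In SCI at 2 weeks the gene measured 48.4, 46.8 and 34.8 CPM, and in 0-week controls 51.7, 99.2 and 53.2 CPM.

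ENSRNOG00000042950 came first by the same ranking among kept genes higher than in aged controls. It measured 15.9, 9.96 and 9.23 CPM in the 2-week controls and had a median of 10.9 CPM in chronic SCI, from 8.9 to 14.8. In aged controls it had a median of 5.19 CPM, from 2.64 to 6.72, below every library of both other groups. The difference of chronic SCI from 2-week controls had a 95% interval from -0.55 to 0.41 (equivalence adjusted p = 0.0309 in limma), and the difference from aged controls was 1.15 (SE 0.19, edgeR adjusted p = 0.00119). Equivalence was lost without any 1 of the 2-week controls or replicate 3 of SCI at 16 weeks, with adjusted p up to 0.128. Aged controls differed from 2-week controls by -1.25 (edgeR adjusted p = 0.0445), a call that was lost in at least the 6 of 9 omissions of 1 library that left no gene called in that comparison. SCI at 2 weeks measured 12.5, 11.2 and 15.2 CPM, whereas the 0-week controls measured 7.49, 5.22 and 6.69 CPM, so uninjured bladders of weeks 0, 8 and 16 were lower than those of week 2.

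Each of these genes headed a set of 8 kept genes chosen by size of difference from aged controls without overlap. The 8 that were lower than in aged controls had differences of -0.14 to 0.14 from the 2-week controls and -1.01 to -0.84 from aged controls. The 8 that were higher had differences of -0.10 to 0.25 from the 2-week controls and 0.96 to 1.15 from aged controls. Aged controls differed from the 2-week controls by a median of 0.87 for the former and -0.89 for the latter. In that comparison 1 gene of the latter set was called (0.282% of all tested genes were). The sets were chosen to lie near the 2-week controls and far from aged controls, so these differences follow from the choice.

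Last, the libraries were compared over all tested genes by their mean Euclidean distance of log2 CPM from the 3 libraries of 2-week controls. The 6 chronic SCI libraries lay at 61.8 ± 2.08 (SD, n = 6), from 59.6 to 64.3, and the 6 aged controls at 66.9 ± 3.02 (SD, n = 6), from 64.6 to 72.7. All chronic SCI libraries were therefore nearer the 2-week controls than all aged controls, and the 2-week controls lay 51.2 ± 1.18 (SD, n = 3) from each other. Such distances also include the scatter within a group. Libraries lay on average 58.7 and 53 from each other in SCI at 8 and 16 weeks, and 60.7 and 56.7 in the controls of those weeks. The difference was -5.09 (two-sided exact permutation test within weeks, p = 0.005, the smallest of 400 arrangements, adjusted p = 0.01 over 2 tests). It did not hold for the most variable genes. Over the 500 genes with the largest variance chronic SCI lay farther from the 2-week controls than aged controls, by 2.35 (exact permutation p = 0.06). Without replicate 2 of the 2-week controls the difference over all genes was -2.14 (exact permutation p = 0.165).

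**Figure D5:**
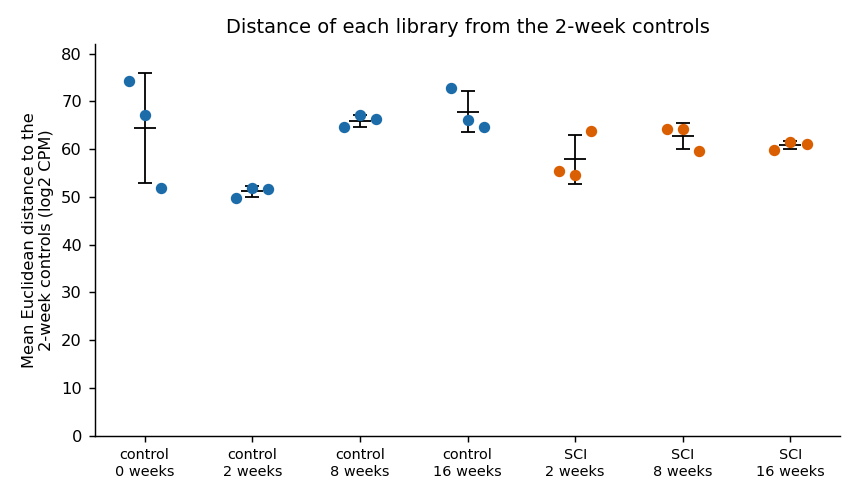
Mean Euclidean distance of log2 CPM over the tested genes (vertical axis, from 0) between each library and the libraries of the 2-week controls, by group (horizontal axis), with blue points for controls, orange points for SCI and black bars for mean and SD. The chronic SCI libraries lie at 59.6 to 64.3, below the aged controls at 64.6 to 72.7, and the 0-week controls spread from 51.8 to 74.3.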

How the data were processed

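RNA of full-thickness bladders was depleted of ribosomal RNA and sequenced from stranded libraries. The submitters' processing notes name FastQC 0.11.9, MultiQC 1.13, Trim Galore 0.6.10, STAR 2.7.10a, SAMtools 1.17, featureCounts 2.0.3 and the rat build Rnor_6.0. The authors deposited raw counts per Ensembl gene, whole numbers without normalization. The annotation release and the strand setting of counting are not given in the sources used here, so overlapping, antisense and near-identical genes may share reads.

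The groups of the samples were taken from their titles. All 21 libraries were fitted in edgeR 4.0.16 (R 4.3.3) with 1 mean per group (7 groups), without covariates (filterByExpr, TMM scaling, 14 residual degrees of freedom, quasi-likelihood F test, Benjamini-Hochberg adjustment over 15225 genes). The common biological coefficient of variation was 0.16. Equivalence within a factor of 1.5 was tested in limma 3.58.1 on log2 CPM with a prior count of 2. Single values over libraries were tested by exact permutation. The tests were tested on simulated data. With changes put into chronic SCI, edgeR called 97% of 4-fold, 76.8% of 2-fold and 46.5% of 1.5-fold changes. It called 10 of 14685 unchanged genes. The equivalence test passed 68.9% of the unchanged genes and 7 of 198 genes changed 1.5-fold.

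Alternatives were other scalings, count filters and margins, DESeq2 1.42.0, fits of fewer groups, a block for replicate number and omission of each library in turn. Thinning of all libraries to the smallest was added after seeing the data. Within each of the 7 groups, replicates differed by more than sampling noise (chi-square per degree of freedom 7.22 to 59.9).

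Members, gene lists and the rule for named genes were chosen with earlier results of these data known. The rule took, among called genes that averaged log2 CPM 1 or more and did not overlap between groups, the 10 with the largest change in each direction, and the 8 kept genes with the largest difference from aged controls in each direction. The RefSeq table matched 0 of the Ensembl identifiers, so genes without symbols entered the rule, only the first gene of each set is named by identifier, and marker and pathway lists, which need symbols, and sequences were not used here.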

Additional observations from a re-analysis of the deposited data

Results flagged for a closer look

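In all, 20 groups of values were checked for a library far from the rest, of which chance alone would set apart about 1 in 20. Among the 6 aged controls, replicate 1 of the 16-week controls stood apart in its distance from the 2-week controls (72.7), with a gap to the next library of 0.689 of the range of the group. The same library stood apart in its total count (15472537), with a gap of 0.793 of the range. Its part in the distances was not tested beyond leaving it out, which kept the sign of the difference between chronic SCI and aged controls.

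The departure from the 2-week controls differed between chronic SCI and aged controls at 4002 genes, 26.3% of those tested (edgeR, adjusted p under 0.05). Among the genes named above, the difference was -3.14 for ENSRNOG00000047712, -1.01 for ENSRNOG00000050658 and 1.15 for ENSRNOG00000042950 on the log2 scale. The last 2 were named for the size of this difference, and the first was chosen from the same chronic SCI libraries, so these values are a description. For ENSRNOG00000043249 the difference was 1.11 and was not called (edgeR adjusted p = 0.083).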

How the results depend on the processing

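The direction of the departure was alike in all 20 alternatives, since more genes were lower than higher in chronic SCI, but the number of calls was not stable. Against 2-week controls 287 genes were called without the 0-week controls in the fit (126 for SCI at 8 weeks, 118 for SCI at 16 weeks), 308 by DESeq2 (170 and 169), and 784 at an unadjusted p with a change of 0.5 or more on the log2 scale (741 and 723). With only the groups compared, 33 genes were called at 8 weeks and 127 at 16 weeks. Leaving out 1 library gave 63 to 169 genes, 11 to 69 at 8 weeks and 10 to 79 at 16 weeks. For aged against 2-week controls the count was 192 with library size alone, 106 without a count filter, 1446 without the 0-week controls, 1669 with only the groups compared, 1666 at an unadjusted p with that minimum change, 1223 by DESeq2, 26 after thinning to the smallest library, and 0 to 85 with 1 library left out. The 0 was edgeR's in 6 of 9 omissions, where 2803 to 3891 genes had an unadjusted p under 0.05. For chronic SCI against aged controls it was 2107 with that minimum change, 2609 at an unadjusted p with it, and 2468 to 4795 with 1 library left out. The number of kept genes was 3751 with the narrower of the other margins, 13597 with the wider and 8658 to 9887 with 1 library left out. The distance difference was 2.35 with the 500 most variable genes, and -7.55 to -2.14 with 1 library left out. The cause of these shifts was not tested.

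Replicate numbers are shared between groups in the labels, but over the 2-week controls, aged controls and chronic SCI same-numbered libraries did not deviate together (30 correlations from -0.24 to 0.16, 4 of them over 0.1). With the replicate number as a block, 200 genes were called in chronic SCI against 2-week controls, 164 of them among the 171, and 859 in aged against 2-week controls.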
